A study of Homo sapiens with 8 samples.

Results

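The genes described here are 10 members of the transforming growth factor beta (TGF-beta) pathway in SQ20B cells: the ligands TGFB1, TGFB2 and INHBA, the ligand-binding protein LTBP1, the receptors TGFBR1 and TGFBR2, the signal carriers and inhibitors SMAD3, SMAD6 and SMAD7, and the target gene TGFBI. They were chosen by name, with earlier results of these data known, and every RefSeq transcript in the deposited table paired with them was used. They make up 18 of 24812 listed transcripts and 10 of 14528 named genes. SQ20B is an established human cell line from a head and neck squamous cell carcinoma. Polyadenylated RNA was sequenced from 4 replicates kept in normoxia and from 4 replicates kept at 0.5% O2 for 16 h, both groups in the same serum-containing medium at 5% CO2. The study calls them biological replicates, and the labels do not say whether they were separate cultures. No genotype, drug or other treatment distinguished the groups, and all samples come from a single line. The table holds 1 FPKM value per condition over its replicates. FPKM is the number of fragments assigned to a transcript per kilobase of its length, scaled to the number of mapped fragments, so that levels of different genes can be set side by side. The spread between replicates was not analysed here, and no difference below has an error or a test. "Higher" and "lower" describe these pooled values only.

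TGF-beta ligands are made as large precursors that stay latent in the matrix, bound to LTBP proteins, until integrins or proteases release them. The active ligand joins a type 2 receptor (TGFBR2) with a type 1 receptor (TGFBR1), which phosphorylates SMAD2 and SMAD3, and these enter the nucleus with SMAD4 and switch target genes on or off. SMAD6 and SMAD7 are inhibitory SMADs that are themselves target genes and close a feedback loop. Activins, which are dimers of inhibin beta chains such as the INHBA product, use other receptors but the same SMAD2 and SMAD3. In squamous epithelium the pathway is known for restraining growth, and in carcinomas for its part in matrix production and invasion.

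Changes were computed as log2((hypoxia FPKM + 0.1)/(normoxia FPKM + 0.1)) with the FPKM of a gene's listed transcripts added first, and the added 0.1 understates the changes of low genes. A mean of at least 0.5 FPKM over the conditions was required for counts, and a change of at least 1.5-fold was used as the size limit. The receptors, TGFB2, SMAD3, INHBA and TGFBI were listed at 5.51 FPKM or more in both conditions, whereas LTBP1, SMAD7, TGFB1 and SMAD6 lay at 1.61 FPKM or less. In hypoxia SMAD3 was 2.03-fold, LTBP1 1.74-fold and INHBA 1.72-fold higher, TGFBR1 and TGFBI were just under 1.5-fold higher, and TGFBR2 was 1.41-fold lower. TGFB2 was level. Of the 10 genes, 8 passed the FPKM limit, each with more than 0.5 FPKM in both conditions, and TGFB1 and SMAD6 did not. Among these 8, 3 were at least 1.5-fold higher in hypoxia and 0 were at least 1.5-fold lower, against 9.95% and 11.2% of the 12106 named genes that passed. The median log2 change was 0.54 over the 8 genes and 0.36 over all 10, beside -0.07 over the 12106 genes.

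**Figure D1:**
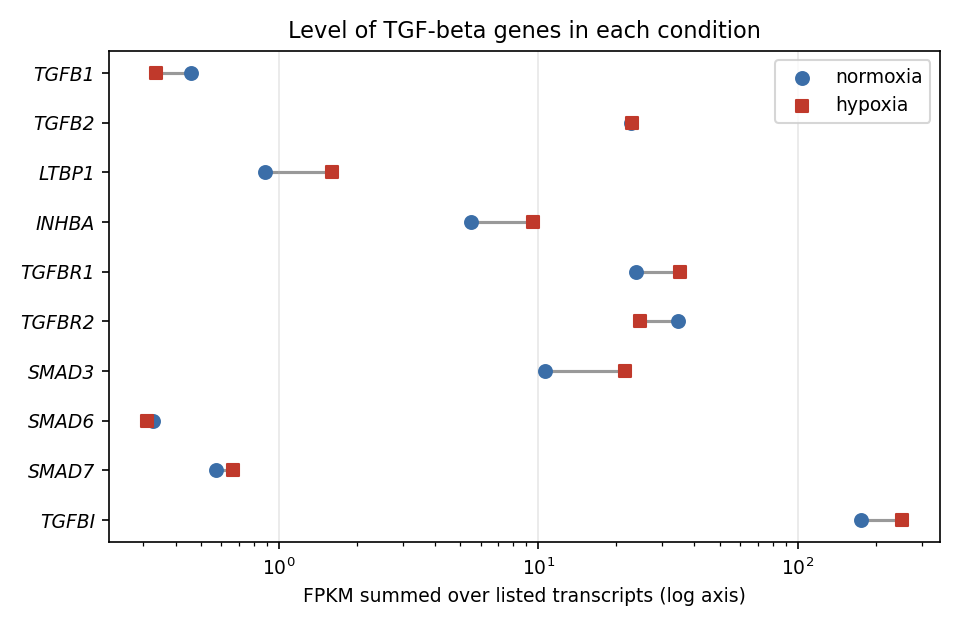
FPKM of each gene in normoxia (circles) and hypoxia (squares), summed over its listed transcripts, on a log axis; each symbol is 1 pooled value per condition. SMAD3, INHBA and LTBP1 show the widest gaps upward, the order of TGFBR1 and TGFBR2 is exchanged between the conditions, and TGFB2 stays in place at 22.7 and 22.9 FPKM.

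Facts of the whole table bear on these values. The FPKM columns summed to 536005 in normoxia and 458431 in hypoxia. As deposited, 1204 genes were at least 1.5-fold higher and 1361 at least 1.5-fold lower, so that 46.9% of them were higher. That share was 58.6% after median centring and 78.6% after scaling to equal FPKM sums, which moved the median of all genes from -0.07 to 0.15. All 8 hypoxia response genes checked, CA9 and VEGFA among them, were at least 1.5-fold higher in hypoxia, with a median log2 change of 2.28. Of 9 squamous and epithelial markers, 8 were listed, from 5.10 to 397.9 FPKM in normoxia and from 3.26 to 441.7 in hypoxia, with sums of 908 and 888 FPKM. KRT6A was the 1 marker of the 8 past the size limit, 1.55-fold lower in hypoxia. KRT14 had no listed transcript paired with it, so no level is given. Of 5 fibroblast markers only COL3A1 was listed, at 0.0489 and 0.107 FPKM. The immune markers CD14 and CD68 were listed at 0.119 and 2.36 FPKM in normoxia and 0.132 and 2.86 in hypoxia, and the endothelial gene CDH5 at 4.78 and 2.83. PTPRC, PECAM1 and COL1A1, which define those lineages, had no listed transcript paired with them, so no level is given. In bulk RNA, fewer cells with a transcript and less of it per cell cannot be told apart.

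The promoter sequences of the 3 genes past 1.5-fold are shown, and that of SMAD6, because it held the palindromic SMAD-binding motif. They are RefSeq windows (table of build GRCh38.p14, in which all 10 genes matched) placed by exact match on GRCh37, the build of the deposited table (hg19). Each is the 250 bases upstream of an annotated start, the one nearest the 5′ end of the gene's locus in the table where RefSeq gives several, 5′ to 3′ on the gene's strand, and no GENCODE exon overlaps these 4 windows. Capitals mark ACGTG and GCGTG, the core of the elements that hypoxia-inducible factors bind, on either strand, and GTCTAGAC. The SMAD3 window lies at chr15:67357690-67357939 (plus strand), the LTBP1 window at chr2:33171770-33172019 (plus), the INHBA window at chr7:41742689-41742938 (minus) and the SMAD6 window at chr15:66994324-66994573 (plus).
SMAD3: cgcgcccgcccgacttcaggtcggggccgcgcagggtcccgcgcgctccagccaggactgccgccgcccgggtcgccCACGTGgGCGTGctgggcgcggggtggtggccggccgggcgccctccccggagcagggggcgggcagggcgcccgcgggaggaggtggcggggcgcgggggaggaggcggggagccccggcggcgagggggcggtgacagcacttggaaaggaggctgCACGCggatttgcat
LTBP1: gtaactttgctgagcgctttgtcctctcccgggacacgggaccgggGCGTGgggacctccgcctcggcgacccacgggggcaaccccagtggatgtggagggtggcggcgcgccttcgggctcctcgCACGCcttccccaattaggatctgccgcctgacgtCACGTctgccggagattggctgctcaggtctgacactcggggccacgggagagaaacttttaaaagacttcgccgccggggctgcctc
INHBA: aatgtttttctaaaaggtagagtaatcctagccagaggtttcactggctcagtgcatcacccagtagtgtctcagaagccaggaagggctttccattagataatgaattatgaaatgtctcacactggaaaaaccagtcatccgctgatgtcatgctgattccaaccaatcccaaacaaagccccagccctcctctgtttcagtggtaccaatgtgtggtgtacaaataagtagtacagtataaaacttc
SMAD6: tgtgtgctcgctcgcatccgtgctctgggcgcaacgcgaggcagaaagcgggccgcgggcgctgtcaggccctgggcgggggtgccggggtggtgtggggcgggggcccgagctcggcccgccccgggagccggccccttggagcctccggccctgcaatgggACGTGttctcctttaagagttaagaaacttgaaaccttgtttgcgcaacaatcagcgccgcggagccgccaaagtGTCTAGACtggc
The SMAD3 window held 2 matches to ACGTG, which are the 2 strands of one CACGTG, and 2 matches to GCGTG. The LTBP1 window held 1 match to ACGTG and 2 to GCGTG, and the INHBA window held neither. Over the windows of all 10 genes, 4 held ACGTG and 4 held GCGTG, against 18.5% and 32.2% of the 35116 RefSeq windows of this length. The ACGTG windows were those of SMAD3, LTBP1, SMAD6 and TGFB2, of which only the first pair belongs to genes past 1.5-fold. GTCTAGAC, which reads the same on both strands, occurred in 1 of the 10 windows and in 0.182% of all windows. The shorter SMAD box CAGAC occurred in 4 of the 10 and in 13345 of the 35116. A match describes the letters only and the windows were not paired with transcripts. RefSeq gives SMAD3 5 windows, and of the 4 downstream of the printed one, 1 held ACGTG and 1 held GCGTG. Most of the SMAD3 FPKM given below belongs to transcripts with later first exons than the full-length one. LTBP1 has 3 windows, and those downstream of the printed one held neither ACGTG nor GCGTG. INHBA has 1 window, and its locus in the table runs on to chr7:41818976, past the 5′ end of the annotated gene at chr7:41745432. The printed INHBA and SMAD3 windows lie inside the gene spans given below, which begin farther upstream.

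Among the ligands, TGFB2 was the abundant TGF-beta and TGFB1 was near the lower end of the table. TGFB2 (chr1:218518678-218617961 in GRCh37, plus strand) had 22.7 FPKM in normoxia against 22.9 in hypoxia, a log2 change of 0.01, and was the member with the smallest change as deposited, though not under the other scalings given below. Its NM_003238 transcript carried nearly all of the sum, at 21.7 FPKM in each condition. NM_001135599, which encodes the longer precursor, was listed at 0.992 and 1.15 FPKM (log2 change 0.20), which is 4.37% of the sum in normoxia and 5.03% in hypoxia. The noncoding TGFB2-AS1, which is read from the opposite strand and overlaps the locus, was listed at 3.61 and 3.12 FPKM. The kit was stranded but no source states that strand was used in counting, so reads of TGFB2 and TGFB2-AS1 may not have been kept apart where they overlap.

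TGFB1 (chr19:41807492-41859827, minus strand), the best-known ligand of the family, was listed with 1 transcript, NM_000660, with 0.457 FPKM in normoxia against 0.336 in hypoxia (log2 change -0.35). It lay below the FPKM limit in both conditions. The TGFB2 to TGFB1 ratio of FPKM was 49.7 in normoxia and 68.0 in hypoxia. TGFB3, the remaining TGF-beta ligand, was also low, at 0.556 and 1.09 FPKM, but differed in the opposite direction (log2 change 0.86).

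INHBA (chr7:41706766-41745432, minus strand), the activin A chain, was listed with 1 transcript, NM_002192. Its level of 5.51 FPKM in normoxia stood against 9.54 in hypoxia, a 1.72-fold difference (log2 change 0.78) that ranked above 94.3% of expressed genes when signed changes are ordered from lower to higher in hypoxia. INHBA was 0.243 times as abundant as TGFB2 in normoxia and 0.417 times in hypoxia. Its sister chain INHBB was more abundant and differed little, at 30.0 and 29.3 FPKM (-0.04). The activin antagonist FST was lower in hypoxia, 17.1 against 11.6 FPKM (-0.56), and the related antagonist FSTL3 was higher, 4.08 against 6.56 (0.67).

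LTBP1 (chr2:33172020-33624576, plus strand), which tethers latent TGF-beta to the matrix, had 0.882 FPKM in normoxia against 1.61 in hypoxia, 1.74-fold higher (log2 change 0.80). Its 2 listed transcripts were both higher in hypoxia. NM_206943, which encodes the long form, went from 0.424 to 0.897 FPKM (log2 change 0.93), and NM_001166265 from 0.458 to 0.711 (0.54). The long form thus held 48.1% of the sum in normoxia and 55.8% in hypoxia. Of its relatives, LTBP2 was listed at 1.84 and 2.52 FPKM (0.44) and LTBP3 at 0.261 and 0.188 (-0.33). LTBP4 was not analysed here.

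The receptors differed in opposite directions. TGFBR1 (chr9:101866320-101916474, plus strand), the type 1 receptor kinase, had 23.8 FPKM in normoxia against 35.1 in hypoxia, 1.48-fold higher (log2 change 0.56), which falls just short of the size limit. NM_004612, which encodes the full-length receptor, carried 97.5% of it in normoxia and 97.7% in hypoxia. The shorter variant NM_001130916 was listed at 0.593 and 0.820 FPKM (log2 change 0.41).

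TGFBR2 (chr3:30648093-30735634, plus strand), the type 2 receptor, had 34.7 FPKM in normoxia against 24.6 in hypoxia, 1.41-fold lower (log2 change -0.49). It was the only one of the 8 genes that passed the limit to be lower in hypoxia. Both of its transcripts were lower, by different amounts. NM_003242 went from 25.8 to 19.6 FPKM (log2 change -0.39). NM_001024847, which encodes the isoform with a short insert in the extracellular part, went from 8.93 to 4.96 FPKM, 1.78-fold lower (log2 change -0.84), so that its share of the sum was 25.7% in normoxia and 20.2% in hypoxia. The ratio of TGFBR1 to TGFBR2 was 0.685 in normoxia and 1.43 in hypoxia. A single scaling factor for each condition leaves such shares and ratios as they are.

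**Figure D2:**
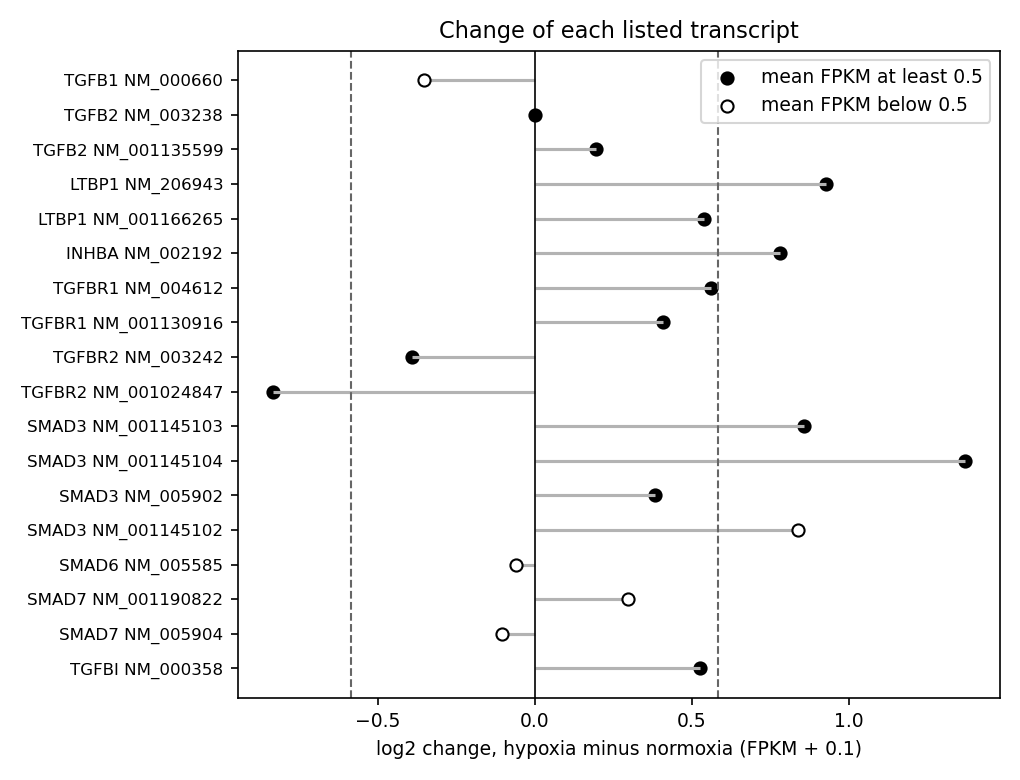
Log2 change of each listed transcript, hypoxia minus normoxia, with 0.1 added to each FPKM; filled points have a mean FPKM of at least 0.5, open points less, and dashed lines mark 1.5-fold. NM_001145104 of SMAD3 lies farthest right at 1.37 and NM_001024847 of TGFBR2 farthest left at -0.84.

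SMAD3 (chr15:67356101-67487511, plus strand), the receptor-activated SMAD that binds DNA, had the largest difference among the 10 genes with transcripts summed. It had 10.6 FPKM in normoxia against 21.6 in hypoxia, 2.03-fold higher (log2 change 1.02), above 96.9% of expressed genes by signed change. In normoxia it lay above 53.1% of expressed genes by level, and in hypoxia above 70.8%. All 4 listed SMAD3 transcripts were higher in hypoxia, and most of the sum came from transcripts other than the canonical one. NM_001145103 went from 6.62 to 12.1 FPKM (log2 change 0.86) and NM_001145104 from 3.07 to 8.11 (1.37, a 2.59-fold difference). Both are annotated with later first exons than NM_005902 and encode proteins with a shorter amino-terminal part, where the DNA-binding MH1 domain of SMAD3 lies. NM_005902, which encodes full-length SMAD3, was listed at 0.678 and 0.915 FPKM (0.38), 6.39% of the sum in normoxia and 4.23% in hypoxia. NM_001145102 was listed at 0.239 and 0.507 FPKM (0.84). The share of NM_001145104 went from 29.0% to 37.5% and that of NM_001145103 from 62.4% to 55.9%. These transcripts share most of their exons, and Cufflinks divides reads between them by a model, so the division carries an error that was not analysed here.

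The other SMADs named here differed less. SMAD2, the partner of SMAD3, was listed at 12.0 and 12.2 FPKM (log2 change 0.02), and SMAD4, the shared partner, at 4.92 and 6.82 (0.46). SMAD7 (chr18:46446223-46477335, minus strand), which blocks the type 1 receptor, had 0.571 FPKM in normoxia against 0.665 in hypoxia (0.19). Its NM_001190822 transcript was listed at 0.394 and 0.507 FPKM (0.30) and NM_005904, which encodes the full-length protein, at 0.177 and 0.157 (-0.10). SMAD6 (chr15:66994574-67075187, plus strand), the inhibitor better known from bone morphogenetic protein (BMP) signalling, was listed with NM_005585 at 0.329 and 0.311 FPKM (-0.06). Both inhibitory SMADs thus lay at 0.665 FPKM or less in each condition. With transcripts summed, SMAD3 was 18.6 times as abundant as SMAD7 in normoxia and 32.5 times in hypoxia. Full-length SMAD3 (NM_005902) alone was listed at 0.678 and 0.915 FPKM, near the summed SMAD7 values.

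**Figure D3:**
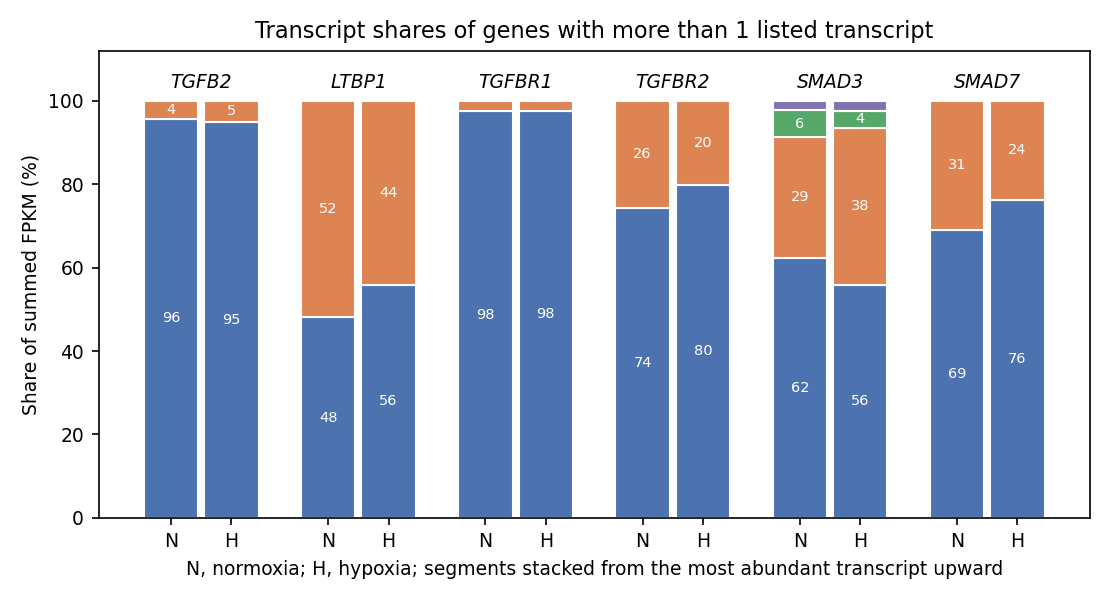
Share of each listed transcript in the summed FPKM of its gene, in percent, in normoxia (N) and hypoxia (H), for the 6 genes with more than 1 listed transcript; segments are stacked in the order of mean FPKM from the bottom. The second SMAD3 segment, NM_001145104, goes from 29.0% to 37.5%, and the second TGFBR2 segment, NM_001024847, from 25.7% to 20.2%.

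TGFBI (chr5:135364677-135399507, plus strand), a secreted matrix protein named for its induction by TGF-beta, was by far the most abundant of the 10. It was listed with 1 transcript, NM_000358, with 175 FPKM in normoxia against 252 in hypoxia, 1.44-fold higher (log2 change 0.53). It lay above 95.8% of expressed genes in normoxia and 98.0% in hypoxia. Ranked by level, the order in normoxia was TGFBI, TGFBR2, TGFBR1, TGFB2, SMAD3, INHBA, LTBP1, SMAD7, TGFB1 and SMAD6. In hypoxia the order was the same except that TGFBR1 stood above TGFBR2. Which neighbours in this order differ beyond the spread of replicates was not tested.

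Taken by transcript, 13 of the 18 passed the FPKM limit. Of these, 4 were at least 1.5-fold higher in hypoxia (NM_001145103 and NM_001145104 of SMAD3, NM_206943 of LTBP1 and NM_002192 of INHBA), against 10.5% of the 18190 transcripts that passed. NM_206943 (0.424 and 0.897 FPKM) and the other LTBP1 transcript (0.458 and 0.711) passed only through their hypoxia values. NM_001024847 of TGFBR2 was the 1 that was at least 1.5-fold lower, against 14.3%. Of the 6 genes with more than 1 listed transcript, SMAD7 was the one whose transcripts differed in opposite directions. Both SMAD7 transcripts had a mean below the FPKM limit. The main transcript of TGFB2 was level.

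The wider pathway was described by 4 lists of genes grouped by role, which include the members. Like the members, the lists were chosen with earlier results of these data known, so their shares beside all genes are a description only. In the list of ligands, latency proteins and extracellular regulators, 23 of 30 listed genes passed the FPKM limit. Of the 23, 10 were at least 1.5-fold higher in hypoxia and 1 was at least 1.5-fold lower, with a median log2 change of 0.37. These are 43.5% and 4.35% of the list, against 9.95% and 11.2% of all genes that passed. Of the 10 higher genes, INHA and BMP8B (0.371 and 0.693 FPKM) lay below 0.5 FPKM in normoxia. Both passed the FPKM limit only through their hypoxia values. With a mean of at least 1 FPKM required, 7 genes of the list were at least 1.5-fold higher. The largest differences were those of INHA, the inhibin alpha chain, at 0.389 and 0.896 FPKM (log2 change 1.03), and BMP2, at 4.04 and 8.12 (0.99). ITGB6, a chain of the integrin that activates latent TGF-beta, followed at 17.1 and 33.3 FPKM (0.95). GDF15, a stress-induced family member, was the gene that was lower, at 7.17 and 3.57 FPKM (-0.99).

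Of the receptors and coreceptors, 11 of 12 listed genes passed the limit, and 2 were at least 1.5-fold higher and 0 lower, with a median of 0.31. The 2 genes are 18.2% of the list, whereas 9.95% of all genes were higher and 11.2% lower. TGFBR3, the coreceptor betaglycan, was listed at 5.18 and 8.71 FPKM (log2 change 0.74), and BMPR2, the type 2 receptor for BMPs, at 3.37 and 5.19 (0.61). In the list of SMADs and their regulators, 23 of 26 genes passed, with a median of 0.08. SMAD3 was the 1 gene of the 23 past the size limit, and 0 were at least 1.5-fold lower. The share higher was thus 4.35%, under the 9.95% of all genes.

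The target genes were the most spread out. Of 39 listed, 35 passed, and 12 of these were at least 1.5-fold higher and 5 at least 1.5-fold lower, with a median of 0.38. The shares were 34.3% higher and 14.3% lower, against 9.95% and 11.2% of all genes, so that the share lower was near the background. LOXL2, a lysyl oxidase that crosslinks collagen, had 3.79 FPKM in normoxia against 16.4 in hypoxia (log2 change 2.08), and FN1, fibronectin, at 7.69 and 24.7 (1.67). COL7A1, the collagen of anchoring fibrils, was listed at 0.691 and 1.64 FPKM (1.14), and COL4A2, a basement membrane collagen chain, at 4.87 and 10.7 (1.11). Several of these genes are also known targets of hypoxia-inducible factors, and the part of TGF-beta in their values was not tested. In the opposite direction, PTHLH was listed at 35.4 and 16.4 FPKM (-1.10), SPHK1 at 1.60 and 0.818 (-0.89), and ID3 and ID1, early targets of BMP receptors, at 4.62 and 2.54 (-0.84) and at 37.2 and 23.0 (-0.69). Other targets were listed between these, among them SKIL at 12.7 and 11.9 FPKM (-0.09), PMEPA1 at 1.99 and 2.12 (0.09), CCN2 at 3.69 and 3.42 (-0.11) and JUNB at 1.02 and 2.08 (0.96).

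**Figure D4:**
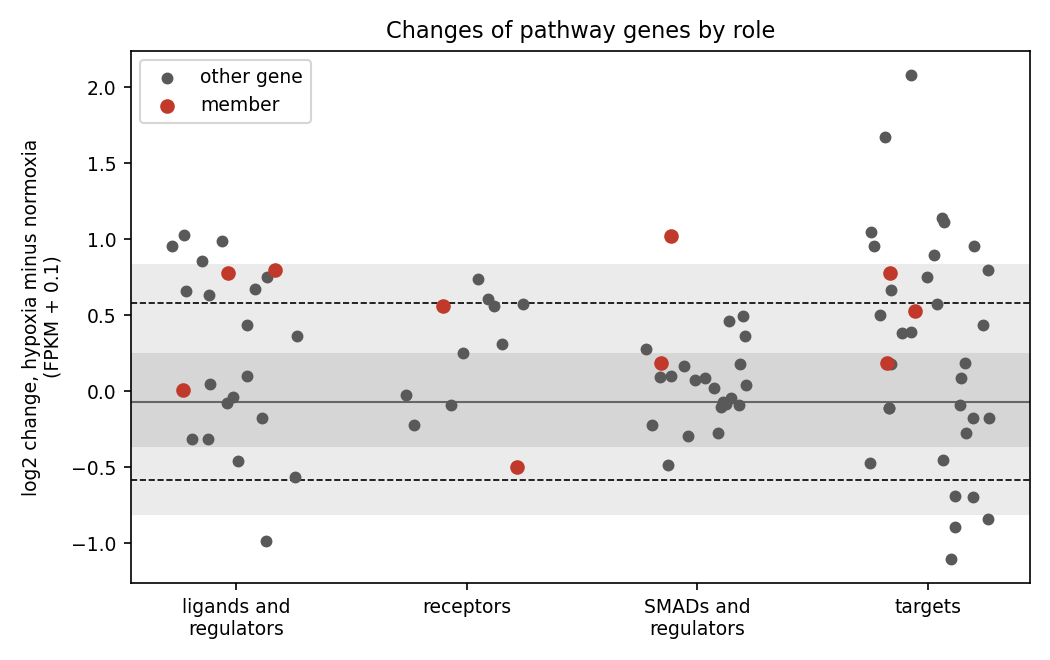
Log2 change of each gene with a mean FPKM of at least 0.5, hypoxia minus normoxia, in the 4 lists, with the members in red; a gene in 2 lists appears in both. The line and bands give the median, the 25th to 75th and the 5th to 95th percentile of all 12106 genes, and dashed lines mark 1.5-fold. SMAD3 stands alone above the dashed line among the SMADs, and the targets span the range from PTHLH at -1.10 to LOXL2 at 2.08.

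The genes outside the 10 whose pair of levels was nearest to that of SMAD3, by distance in log2(FPKM + 0.1) over the 2 conditions, were TSC22D1 (10.4 and 21.2 FPKM), GLG1 (11.1 and 21.3) and TENT5A (11.0 and 22.6). For TGFBR2 they were NEMF (34.6 and 24.5 FPKM), CEP78 (34.8 and 24.8) and MRPS18A (34.3 and 24.6). With 2 values per gene, this likeness is a description only.

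**Figure D5:**
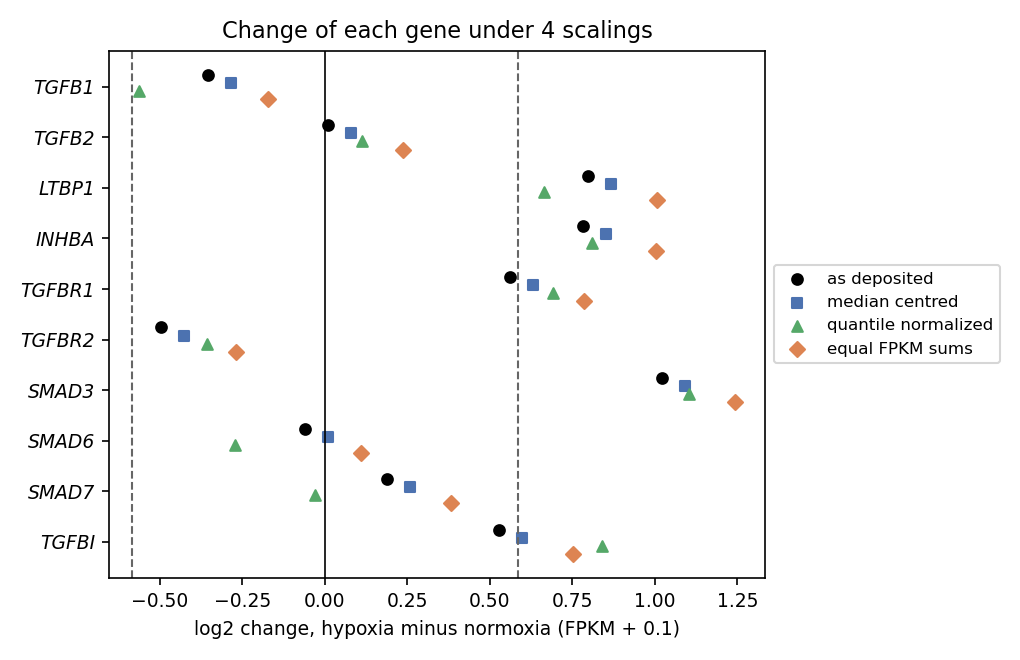
Log2 change of each gene, hypoxia minus normoxia, with the FPKM as deposited (circles), median centred (squares), quantile normalized (triangles) and scaled to equal sums (diamonds); dashed lines mark 1.5-fold. TGFBR1 and TGFBI cross the upper line under each of the 3 other scalings, and TGFBR2 stays below 0 under all 4.

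The scaling decided the calls of genes near the size limit. Under median centring, quantile normalization and equal FPKM sums, 5 genes were at least 1.5-fold higher in place of 3, with TGFBR1 (log2 change 0.63, 0.69 and 0.79) and TGFBI (0.60, 0.84 and 0.75) added to SMAD3, LTBP1 and INHBA. Over the 12106 named genes that passed, 1499, 1213 and 2204 were at least 1.5-fold higher under these scalings, against 1204 as deposited. TGFBR2 kept a negative change, at -0.42, -0.36 and -0.27. SMAD7 was at 0.26, -0.03 and 0.38 and SMAD6 at 0.01, -0.27 and 0.11, so that neither has a direction that holds under these scalings.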

How the data were processed

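RNA of 8 samples was sequenced by the authors from stranded TruSeq mRNA libraries. Reads were placed on hg19 by STAR 2.3.0.1, and Cufflinks 2.1.1 was run at its standard settings against RefSeq models, per the submitters' processing notes and the study's methods. The deposited table holds FPKM values, 1 per condition over the 4 replicates, and the authors' own fold changes, test statistics, p-values and q-values, which were not used. Samples were grouped by their source label. FPKM values without counts give no depth, so no interval or detection limit is given, and no test was run, since values of single samples were not analysed here.

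Transcripts were paired with symbols through RefSeq of GRCh38.p14 (24293 of 24812, 97.9%), from which no coordinates were taken. Gene coordinates are those of GENCODE v44 on GRCh37. FPKM was summed per gene, 0.1 was added, and a mean of at least 0.5 FPKM and a size limit of 1.5-fold were used. The counting was tested on simulated data. All members are named, with up to 4 genes per list and direction that had the largest changes past the size limit and the 3 nearest genes to the members with the largest rise and fall. Genes named for comparison beyond these were chosen after their values were seen. The members and lists were chosen with earlier results of these data known, and 1 target gene is not reported here. Alternatives to the pseudocount, FPKM limit, scaling, transcripts used and size limit were tried. Software versions were numpy 2.4.6, pandas 2.3.3 and matplotlib 3.10.9, under Python 3.11.15.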

Additional observations from a re-analysis of the deposited data

How the results depend on the processing

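No paired analysis was possible because the table gives 1 value per condition, and the planned replicate block and leaving out of replicates were not run for the same reason. The number of members at least 1.5-fold higher was 5 under median centring, quantile normalization and equal FPKM sums, 1 with a limit of 2-fold and 5 with a limit of a 25% excess of one condition over the other, the last chosen after the data were seen. With that limit, 1 member (TGFBR2) was lower. With 1 FPKM added, 2 members were at least 1.5-fold higher, since LTBP1 then had a log2 change of 0.47. Of the receptors, 5 were at least 1.5-fold higher under median centring and equal sums, 4 under quantile normalization, 1 with 1 FPKM added and 0 with a 2-fold limit. Of the SMADs and their regulators, 4 were higher under equal sums and 2 under quantile normalization. Of the ligands and extracellular regulators, 4 were higher with 1 FPKM added, and 1 was higher and 0 lower with a 2-fold limit. Of the target genes, 5 were higher and 1 was lower with a 2-fold limit, and 3 were lower under equal sums and with 1 FPKM added. Including that of 2 members with 1 FPKM added, 82 counts equalled or lay within 1.5 times the reported ones, and 20 did not. The 82 include counts of 0 that stayed at 0. The counts over all genes moved too: 2204 were at least 1.5-fold higher and 601 lower under equal sums, against 1204 and 1361 as deposited. Under median centring, 1060 of all genes were lower, and under quantile normalization 1173. Shares of all genes were not computed with the other limits or with 1 FPKM added, so those counts have no background beside them. The log2 changes of SMAD3 (0.86 to 1.24), INHBA (0.70 to 1.00), LTBP1 (0.47 to 1.01), TGFBI (0.52 to 0.84) and TGFBR1 (0.54 to 0.79) stayed above 0 and those of TGFBR2 (-0.50 to -0.27) and TGFB1 (-0.56 to -0.12) below 0 under the 9 alternatives to scaling, pseudocount, limit and transcripts. Those of TGFB2 ran from 0.00 to 0.24. Another FPKM limit or pseudocount cannot change the sign of a gene's log2 change, and all member transcripts used are coding. Only the scalings, and the most abundant transcript for genes with more than 1, could have changed a sign. The causes were not tested. Depth and replicate spread, which FPKM pooled per condition does not show, limit the low genes most.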

Other observations

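A further transcript at the SMAD6 locus, NM_001142861, could not be paired with a symbol and was left out of SMAD6. It had 0.301 FPKM in normoxia against 0.177 in hypoxia (log2 change -0.54), and counting it, an alternative chosen after the data were seen, gave SMAD6 a log2 change of -0.31 in place of -0.06. SMAD6 then had 0.630 FPKM in normoxia against 0.488 in hypoxia and passed the FPKM limit, so that 9 of the 10 genes passed and 2 of them, TGFBR2 and SMAD6, were lower.

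Other genes of the lists also lay near or past the size limit and were picked after their values were seen. ITGAV, which pairs with ITGB6 in the integrin that releases latent TGF-beta, had 47.4 FPKM in normoxia against 73.6 in hypoxia (log2 change 0.63), and ITGB8, another partner of it, at 19.7 and 25.4 (0.37). Among the targets, CDKN1A, the cell cycle inhibitor p21, was listed at 16.6 and 34.4 FPKM (1.05), TIMP3 at 35.5 and 66.3 (0.90) and COL4A1, the partner chain of COL4A2, at 13.4 and 23.5 (0.80). ID4 was lower, like ID1 and ID3, at 1.68 and 1.00 FPKM (-0.69), whereas ID2, below the FPKM limit, was listed at 0.293 and 0.442 (0.47). BAMBI, a pseudoreceptor that dampens the pathway, and ACVR2B, an activin receptor, fell just short of 1.5-fold, with log2 changes of 0.57 and 0.56.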
